A study of Mus musculus with 8 samples.

Results

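The trophoblast lineage genes described here are 8 genes named for their use as regulators or markers of trophoblast, the lineage that gives rise to the placenta. They were taken by symbol from the deposited expression tables, and all 8 were found among 24505 genes. Cdx2, Elf5, Tfap2a, Tfap2c, Gata2, Gata3 and Hand1 encode transcription factors, and Krt7 encodes a keratin. In the mouse embryo, Cdx2 and Gata3 act in the trophectoderm, the outer cells of the blastocyst, where the Hippo pathway factor TEAD4 keeps them on. Elf5, Tfap2c and Eomes act with Cdx2 in trophoblast stem cells, Hand1 drives trophoblast giant cells, and Gata2 regulates hormone genes of those cells. Embryonic stem cells come from the inner cells and normally keep this programme low, and promoters of such developmental regulators are well-known carriers of bivalent chromatin, in which activating and repressive histone marks lie together.

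The cells were a mouse embryonic stem cell line with a conditional allele of Ino80, which encodes the ATPase subunit of the chromatin remodeller INO80. There were 4 groups of 2 libraries, labelled knockout and wild type in the naive state and knockout and wild type in the primed state. Naive cells grew with MEK and GSK3 inhibitors and LIF at 1000 units/ml, and primed cells with FGF2 at 12 ng/ml, Activin A at 20 ng/ml and XAV939, a tankyrase inhibitor, at 2 uM. Deletion was induced by 100 nM 4-OHT for 2 days with 2 further days of culture. Whether wild-type cells also received it was not given in the sources used here. The design text asks how Ino80 deletion alters the transcriptome in both states. All groups share the line and its conditional allele, and no label states that the libraries of one group came from separate cultures. The p-values thus rest on the spread between libraries of a group, which may be technical. In the main limma fit this spread was taken from a trend over all genes, not from each gene's own libraries.

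Expression was deposited as RPKM (reads scaled to gene length and library size) that had been scaled further. Depth is unknown, and ties between genes, which are shared within a state but not between states, are a sign that the states were scaled apart. For that reason levels in the 2 states are set side by side without a test. Ino80 itself was at 15.1 and 16.0 RPKM in the naive libraries labelled knockout, between the 14.5 and 17.0 RPKM of naive wild type, and its log2 change of -0.02 ± 0.18 (SE) had a limma adjusted p of 0.975. In primed cells it was at 8.74 and 9.12 RPKM in knockout against 15.9 and 20.3 RPKM in wild type, a log2 change of -0.93 ± 0.18 with a limma adjusted p of 2.03e-06 (-0.26 after quantile normalization). The exons that the deletion removes are not given in the sources used here, so a value over the whole gene need not show it. The stem cell identity factor Pou5f1 stood between 560 and 694 RPKM in all 8 libraries, the naive marker Zfp42 averaged 226 RPKM in naive and 0.831 RPKM in primed wild type, and the primed marker Fgf5 averaged 0.163 and 5.15 RPKM. Changes below are differences in log2(RPKM + 1), knockout minus wild type, with their standard error. The median change over the 13428 genes tested was 0.05 in naive and -0.53 in primed cells, so most primed genes were lower in knockout as deposited.

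**Figure D1:**
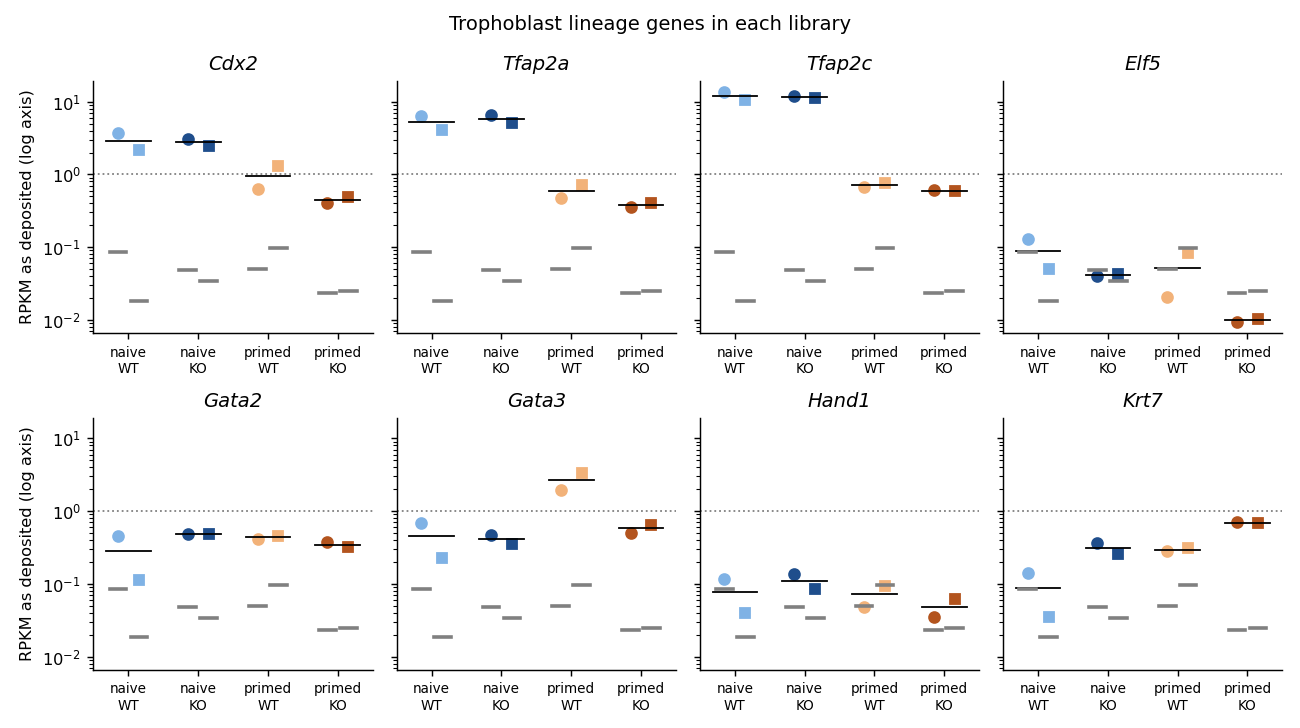
Level of each of the 8 genes in every library, in RPKM as deposited on a log axis, with a circle for the first and a square for the second library of a group, a black line at the group mean (n = 2), a dotted line at 1 RPKM and a grey bar at each library's median over genes with tied values. Tfap2c, Tfap2a and Cdx2 lay above 2 RPKM in all 4 naive libraries, Gata3 lay above 1 RPKM only in the primed wild-type libraries, and Krt7 lay higher in the libraries labelled knockout than in wild type in both states.

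In naive cells 3 of the genes stood clearly above the other 5. Tfap2c, an AP-2 factor needed for trophectoderm and for germ cells, averaged 11.9 RPKM ± 2.04 (SD, n = 2) in naive wild type, Tfap2a 5.26 ± 1.58 and Cdx2 2.92 ± 1.07. The other 5 genes averaged between 0.0782 RPKM (Hand1) and 0.457 RPKM (Gata3) there. In primed wild type the order was another one, with Gata3 at 2.64 ± 1.01 RPKM above Cdx2 at 0.955 ± 0.468, Tfap2c at 0.708 ± 0.0596 and Tfap2a at 0.593 ± 0.178. Each gene's percentile within its own library is the share of all 24505 genes with a lower value. A common factor for the whole library leaves it unchanged, but whether the further scaling changed ranks is unknown. Tfap2c stood between the 74.1 and 75.3 percentile in naive and the 43.2 and 51.1 percentile in primed libraries, and Gata3 between 42.2 and 43.9 in naive and between 55.0 and 56.1 in primed wild type.

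Gata3, a zinc finger factor of trophectoderm, was lower in primed knockout than in primed wild type. Its levels were 0.507 and 0.654 RPKM in the knockout libraries and 1.93 and 3.35 RPKM in the wild-type libraries. Both knockout libraries lay below both wild-type libraries, as was so for 78.3% of all genes in the primed state. The wild-type mean was 4.55 times the knockout mean of 0.581 ± 0.104 RPKM. The log2 change was -1.18 ± 0.25 with a limma adjusted p of 1.24e-05, and it was the only one of the 4 tested members called at an adjusted p below 0.05 in primed cells, where 63.4% of all tested genes were called. Gata3 passed the filter on low values only through the primed wild-type libraries, in which it is high. Its call held in all 17 other settings that kept the gene, with adjusted p from 1.73e-10 to 0.00761, but its change shrank to -0.48 with median centring, -0.49 with quantile normalization and -0.62 with loess within state. Within the libraries it fell from the 55.0 and 56.1 percentile in wild type to the 50.02 and 51.7 percentile in knockout. In bulk RNA, fewer cells that express a gene and less of its RNA per cell cannot be told apart.

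In naive cells Gata3 did not differ beyond the spread of its libraries. It was at 0.465 and 0.352 RPKM in libraries labelled knockout, against 0.691 and 0.223 RPKM in wild type. All of these values lay at or below the 95th percentile of genes with tied values in their library, a guide to the lowest values. The ranges overlapped, with the highest and the lowest value both in wild type, and the log2 change was -0.03 with a 95% interval of -0.53 to 0.46 and a limma adjusted p of 0.973. The difference of the effects, primed minus naive, was -1.15 ± 0.36 with a limma adjusted p of 0.00475, where 49.6% of genes were called and the median gene stood at -0.59. That call was lost with median centring (-0.40, adjusted p 0.108), with no filter and a pseudocount of 0.1 (-1.97, adjusted p 0.0708), without the first naive library labelled knockout (adjusted p 0.0627) and without the first primed knockout library (0.0621), within a range over alternatives of 6.48e-06 to 0.108.

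Krt7, a keratin of simple epithelia that marks cultured trophoblast, went the other way. In primed cells it was at 0.708 and 0.685 RPKM in knockout and at 0.281 and 0.308 RPKM in wild type, 2.37 times higher by the means. Both knockout libraries lay above both wild-type libraries, as was so for 5.1% of all genes in the primed state. Krt7 stayed below 1 RPKM in every library and so was outside the genes tested. Without the filter its primed log2 change was 0.39 ± 0.11 with a limma adjusted p of 0.00543, in a comparison in which 2.29% of genes were called higher. The adjusted p was 6.7e-05 with quantile normalization and no filter and 0.142 with a pseudocount of 0.1 and no filter, which is the range over its alternatives.

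Naive Krt7 was at 0.367 and 0.255 RPKM in libraries labelled knockout, against 0.140 and 0.0354 RPKM in wild type. In these wild-type libraries the median of genes with tied values, a guide to the lowest values, was 0.0844 and 0.0184 RPKM. Every naive value of Krt7 lay at or below the 95th percentile of such genes, as did both primed wild-type values. The libraries labelled knockout again lay above both wild-type ones, which 19.2% of all genes did in the naive state. Without the filter the naive change was 0.27 ± 0.11 with a limma adjusted p of 0.196, and only quantile normalization gave a call (0.28, adjusted p 0.00419, range 0.00419 to 0.286). Krt7 moved from the 28.9 and 29.0 percentile in naive wild type to 40.7 and 40.0, and from the 39.8 and 37.0 percentile in primed wild type to 52.1 and 52.0. No other of the 8 genes had both libraries labelled knockout above wild type in both states in RPKM. The promoters of Gata3 and Krt7, whose primed changes had opposite signs, and the first promoter of Elf5, the gene with the fewest CpG dinucleotides at a start site, are printed from RefSeq (GRCm38.p6; 250 bases before to 50 after the start, 5′ to 3′ on the gene's strand), with each CpG in capitals. They lie at chr2:9878551-9878850 on the minus strand, chr15:101412153-101412452 on the plus strand and chr2:103411848-103412147 on the plus strand.
Gata3: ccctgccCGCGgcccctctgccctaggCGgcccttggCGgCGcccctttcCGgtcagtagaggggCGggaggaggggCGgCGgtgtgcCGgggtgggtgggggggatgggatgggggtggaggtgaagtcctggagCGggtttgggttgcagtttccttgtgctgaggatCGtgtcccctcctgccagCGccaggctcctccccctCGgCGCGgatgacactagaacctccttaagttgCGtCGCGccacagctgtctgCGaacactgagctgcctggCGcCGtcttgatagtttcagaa
Krt7: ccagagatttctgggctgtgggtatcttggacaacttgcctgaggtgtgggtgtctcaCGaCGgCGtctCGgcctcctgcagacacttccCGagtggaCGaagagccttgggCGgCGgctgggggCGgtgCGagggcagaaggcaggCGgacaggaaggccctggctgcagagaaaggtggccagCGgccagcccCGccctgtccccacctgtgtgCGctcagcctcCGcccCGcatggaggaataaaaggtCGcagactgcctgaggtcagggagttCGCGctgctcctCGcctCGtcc
Elf5: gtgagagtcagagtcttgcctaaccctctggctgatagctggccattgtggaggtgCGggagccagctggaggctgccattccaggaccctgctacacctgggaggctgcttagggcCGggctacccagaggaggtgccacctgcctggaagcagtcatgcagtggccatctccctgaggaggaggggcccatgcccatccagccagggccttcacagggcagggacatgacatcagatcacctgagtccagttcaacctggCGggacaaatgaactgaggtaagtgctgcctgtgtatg

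The Gata3 window held 22 CpG and the Krt7 window 21, against 3 in this Elf5 window and a median of 7 over 32851 promoter windows. Gata3 thus ranked at the 77.7 percentile of all windows by CpG count and Krt7 at the 76.0 percentile, so the genes with opposite primed changes had like CpG counts. Cdx2 had 18, the 2 windows of Tfap2a 11 and 15, those of Gata2 32 and 29, and the second window of Elf5 10. RefSeq windows were matched for 6 of the 8 genes, 9 windows in all, and Tfap2c and Hand1 had none in the table used. The AP-2 motif GCCNNNGGC, whose letters read alike on both strands, stood 3 times in the Gata3 window, 2 times in that of Krt7 and once each in that of Cdx2 and the second of Gata2. It was in 4 of 9 windows of these genes and in 16.6% of all windows. The fixed letters of this motif are all G or C. G and C made up 67.3% of the Gata3 window, 66.3% of that of Krt7, 57.3% of that of Cdx2 and 73.7% of the second of Gata2. The median over all windows was 52.7%, and enrichment was not tested. On both strands, GATAA for GATA factors was in 1 of 9 windows (25.4% of all), GGAATG for TEAD factors in 2 (14.7%), CANNTG for basic helix-loop-helix factors in 6 (72.3%), GGAAGT for ETS factors in 1 (23.8%) and TTTATNG for CDX factors in 0 (10.9%). Each motif was counted by itself, also where matches overlapped, and a match describes letters in the window only.

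**Figure D2:**
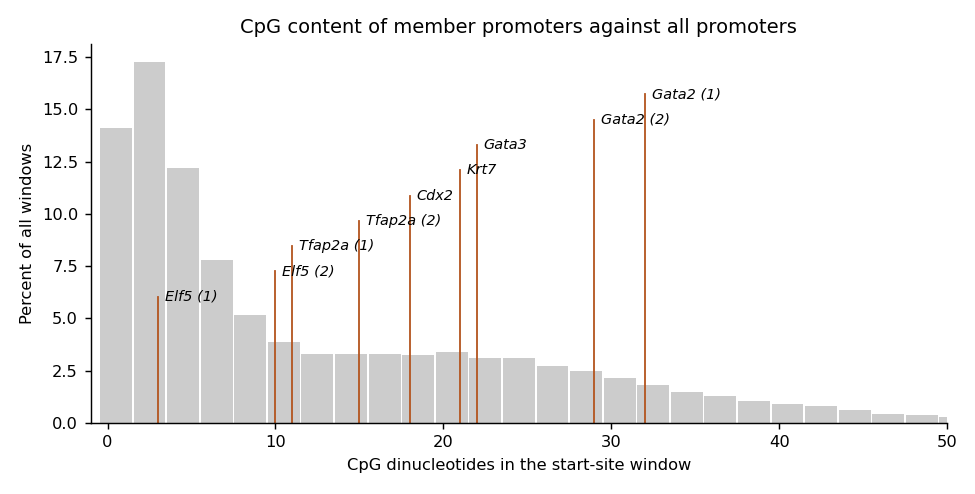
Distribution of CpG counts over all 32851 RefSeq promoter windows of 300 bases (bars, percent of windows on the y axis, CpG per window on the x axis), with the 9 windows of 6 trophoblast lineage genes marked by lines whose height carries no value; the x axis ends at 50 CpG. Gata2 lies farthest right with 32 CpG, and the first Elf5 window farthest left with 3.

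The AP-2 factors Tfap2c and Tfap2a were the most abundant of the 8 in naive cells, and their levels there overlapped between genotypes. Tfap2c was at 11.9 and 11.3 RPKM in naive libraries labelled knockout, against 13.4 and 10.5 RPKM in wild type. Tfap2a was at 6.51 and 5.17 RPKM in libraries labelled knockout, against 6.38 and 4.14 RPKM in wild type. For both genes the groups overlapped, with wild type holding the lowest library. The naive log2 change was -0.03 for Tfap2c (95% interval -0.58 to 0.52, limma adjusted p 0.975) and 0.14 for Tfap2a (-0.40 to 0.69, adjusted p 0.845), so changes inside these intervals could not be seen with 2 libraries a group.

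In primed cells both AP-2 genes were below 1 RPKM, and the sign of their change turned with the scaling. Tfap2c was at 0.609 and 0.587 RPKM in knockout and at 0.666 and 0.751 RPKM in wild type. Tfap2a was at 0.360 and 0.402 RPKM in knockout and at 0.468 and 0.719 RPKM in wild type. Both wild-type values and the first knockout value of Tfap2a lay at or below the 95th percentile of genes with tied values in their library. So did the second wild-type value of Tfap2c. The median of genes with tied values was 0.04925 and 0.09697 RPKM in primed wild type, and 0.02335 and 0.02467 RPKM in primed knockout. As deposited, both knockout libraries lay below both wild-type libraries for each gene, as for 78.3% of all genes. The log2 changes were -0.10 ± 0.28 for Tfap2c (limma adjusted p 0.784) and -0.20 ± 0.28 for Tfap2a (0.543). By rank within the library the order was the opposite, with Tfap2c at the 51.1 and 51.0 percentile in knockout against 47.5 and 43.2 in wild type, and Tfap2a at 46.9 and 48.4 against 43.7 and 42.7. Median centring gave 0.60 for Tfap2c and 0.49 for Tfap2a, quantile normalization 0.40 and 0.23, and loess 0.33 and 0.18. All but the last of these 6 values were called, with the adjusted p of Tfap2c between 0.000107 and 0.906 and that of Tfap2a between 0.00142 and 0.861 over all alternatives.

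Cdx2, the homeobox factor that specifies trophectoderm and later posterior embryonic tissues, stood at a low level in both states. It was at 3.06 and 2.47 RPKM in naive libraries labelled knockout, against 3.67 and 2.16 RPKM in naive wild type. These ranges overlapped, and the log2 change of -0.03 had a 95% interval of -0.56 to 0.50 and a limma adjusted p of 0.973. In primed cells Cdx2 was at 0.399 and 0.485 RPKM in knockout and at 0.624 and 1.29 RPKM in wild type. The first of these wild-type values lay at or below the 95th percentile of genes with tied values in its library. The knockout libraries were the lower ones, yet the second wild-type library was far above the first, and the log2 change of -0.42 ± 0.27 had a limma adjusted p of 0.165. Under the 3 scalings the sign turned (0.28, 0.12 and 0.01, none called), and the percentiles overlapped, at 48.1 and 49.7 in knockout and 46.8 and 49.1 in wild type. As deposited a call appeared with each state fitted alone (adjusted p 0.0107) and without any one of 3 wild-type libraries, in a range over alternatives of 0.0107 to 0.946.

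Gata2, Elf5 and Hand1 stayed below 0.5 RPKM in every library. Genes whose values are tied in all 4 libraries of a state give a guide to the lowest values, with a median between 0.0184 and 0.0844 RPKM over 4017 such genes in naive and between 0.0233 and 0.0970 RPKM over 4501 in primed libraries. Elf5, an ETS factor kept methylated and silent in embryonic stem cells, was at 0.0395 and 0.0431 RPKM in naive libraries labelled knockout, 0.128 and 0.0502 in naive wild type, 0.00946 and 0.0103 in primed knockout and 0.0208 and 0.0831 in primed wild type. The libraries labelled knockout were the lower ones in both states, but each group lay around the tied values of its own libraries. Hand1, the basic helix-loop-helix factor of giant cells, was at 0.136 and 0.0862 RPKM in naive libraries labelled knockout, 0.117 and 0.0391 in naive wild type, 0.0352 and 0.0611 in primed knockout and 0.0485 and 0.0947 in primed wild type. Its groups overlapped in both states. Neither gene was called in any fit without the filter, with limma adjusted p from 0.0968 to 0.708 for Elf5 and from 0.0687 to 0.994 for Hand1 within states.

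Gata2, a GATA factor of giant cells and blood progenitors, was at 0.492 and 0.488 RPKM in naive libraries labelled knockout, against 0.453 and 0.113 RPKM in naive wild type. In primed cells it was at 0.372 and 0.322 RPKM in knockout and at 0.414 and 0.454 RPKM in wild type. The libraries labelled knockout were the higher ones in naive and the lower ones in primed cells, by a narrow margin in each. Without the filter the log2 changes were 0.23 ± 0.13 (limma adjusted p 0.492) and -0.09 ± 0.13 (0.599). Quantile normalization without the filter gave 0.28 and 0.23, both called (adjusted p 0.0206 and 0.0282, with ranges up to 0.722 and 0.710 over alternatives), and by percentile the libraries labelled knockout were above wild type in both states. The primed direction of Gata2 therefore turned with the scaling.

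**Figure D3:**
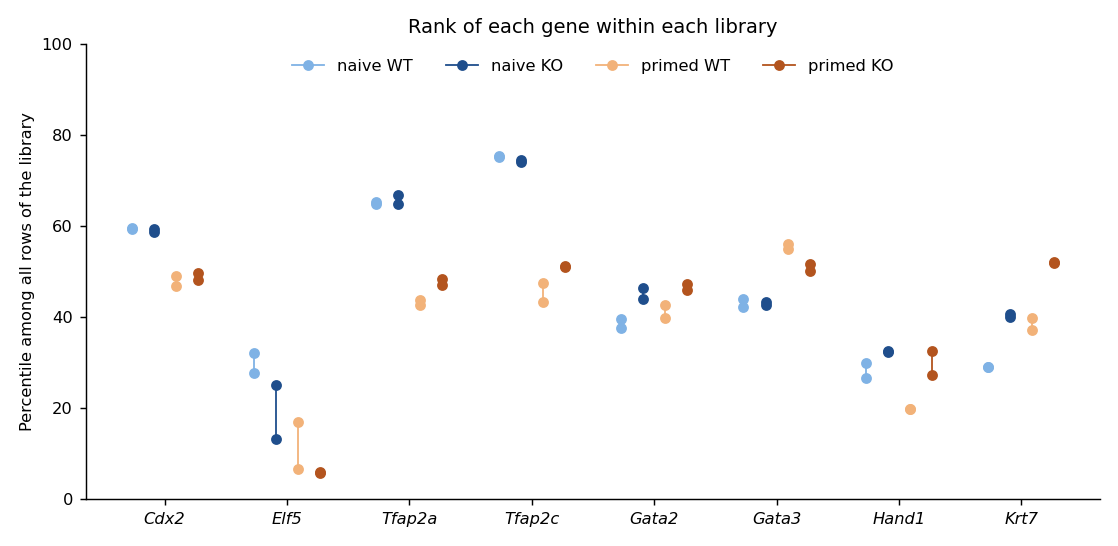
Percentile of each gene among all 24505 genes within each library (y axis), with 1 point per library and a line joining the 2 libraries of a group. In primed cells Tfap2a, Tfap2c, Gata2, Hand1 and Krt7 ranked higher in both knockout libraries than in both wild-type libraries, Gata3 and Elf5 lower, and Cdx2 overlapped.

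Over the set, 4 of 8 genes (Cdx2, Tfap2a, Tfap2c and Gata3) passed the filter and were tested. In naive cells none was called by limma, which called 11.9% of all genes tested there, none had an unadjusted p below 0.05, and the 4 changes lay between -0.03 and 0.14. In primed cells 1 of 4 was called, Gata3, where 63.4% of all tested genes were called. In the difference of effects also 1 of 4 was called, again Gata3, against 49.6% of all tested genes. Under the other settings the share of all genes called in primed cells was 38.9% without the filter, 69.6% with a filter of 5 RPKM, 58.9% with each state alone, 65.1% with median centring, 74% with quantile normalization, 73.5% with loess and 47.1% with quantile normalization and no filter (32.1% in naive cells). For the difference of effects it was 57.3% with a filter of 5 RPKM, 46.3% with median centring, 64.4% with quantile normalization, 63.4% with loess, 24.3% with no filter and a pseudocount of 0.1, and 37.4% with quantile normalization and no filter. The members called there are counted with the processing alternatives. By RPKM, knockout libraries lay below wild type for 6 of the 8 genes in primed cells, where 78.3% of all genes did so, and above for Krt7 alone. In naive cells the libraries labelled knockout lay above for Gata2 and Krt7 and below for Elf5 (13.5% of all genes), and the other 5 overlapped. By percentile, knockout was above wild type for 5 of 8 in primed cells, as for 31.5% of all genes, and below for 2, as for 51.4%. In naive cells the libraries labelled knockout were above for 3 (Gata2, Hand1 and Krt7; 29% of all genes) and below for 3 (Cdx2, Elf5 and Tfap2c; 39.1%).

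**Figure D4:**
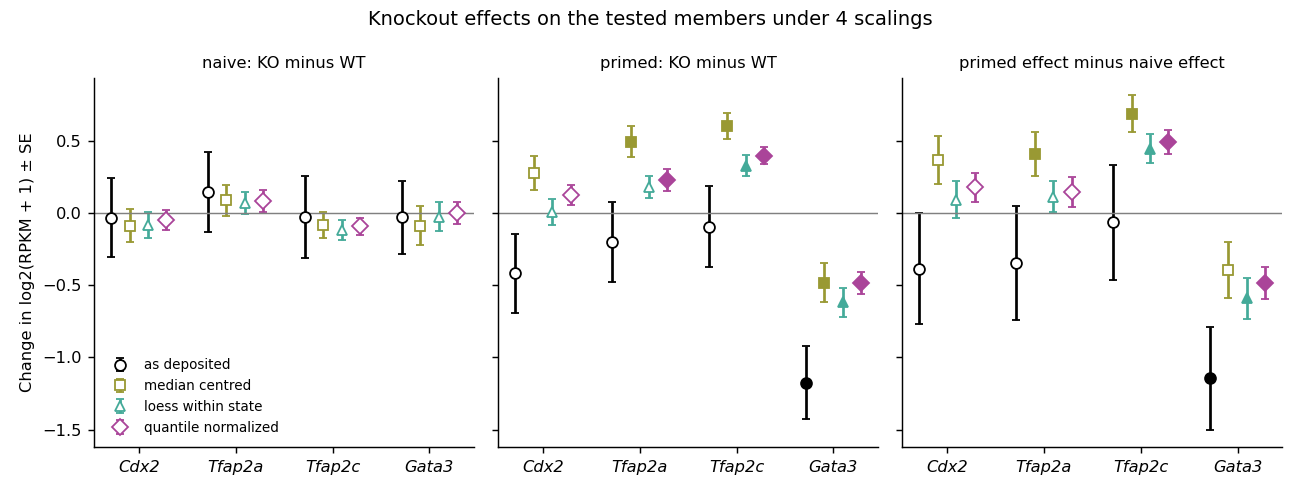
Change in log2(RPKM + 1) of each tested gene with its standard error from limma, in 3 panels for naive cells, primed cells and the primed minus the naive effect, as deposited and under 3 other scalings (filled symbols, adjusted p below 0.05). The primed change of Gata3 lies below 0 under every scaling, while those of Tfap2a, Tfap2c and Cdx2 lie below 0 as deposited and above 0 under the other 3.

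Level order also differed by gene. Cdx2, Tfap2a and Tfap2c ran from both naive groups, which overlapped, down to primed wild type and then primed knockout, with no overlap at those steps. Gata3 ran from primed wild type down to primed knockout without overlap, and primed knockout overlapped naive wild type, which overlapped the naive libraries labelled knockout. Krt7 was highest in primed knockout, followed by the naive libraries labelled knockout and primed wild type, which overlapped, and then by naive wild type. Gata2 was highest in the naive libraries labelled knockout, followed by primed wild type and then primed knockout. Its naive wild type, at 0.113 and 0.453 RPKM, overlapped both primed groups. Elf5 was lowest in primed knockout, and its other 3 groups overlapped in order. Hand1 showed overlap at each of its 3 steps. These orders across states describe values that may have been scaled apart.

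The genes whose library profile came nearest to Gata3, by root mean square difference of log2 values over the 8 libraries after removing each state's mean, were Clcf1, Olfm2 and Usp13. Their distances were 0.0263, 0.0301 and 0.0363, against a median of 0.296 over all tested genes. Clcf1, a cytokine gene, was at 0.190 and 0.233 RPKM in primed knockout and at 1.20 and 2.37 RPKM in primed wild type. Olfm2, which encodes an olfactomedin protein, was at 1.83 and 1.99 RPKM and at 4.62 and 7.24 RPKM in those groups. Usp13, a deubiquitinase gene, was at 0.737 and 0.953 RPKM and at 2.65 and 4.01 RPKM. Like Gata3, each had both primed knockout libraries below both wild-type libraries, as did 78.3% of all genes. Each also had its highest primed value in the second wild-type library. Genes picked for nearness to Gata3 share its order of libraries through that choice, so the likeness is no separate result.

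Gata3 overlaps 2 long noncoding RNA genes, 4930412O13Rik and 9230102O04Rik, and the sources used here do not give the strand counted, so reads of overlapping genes could be mixed. In primed cells 4930412O13Rik averaged 0.246 RPKM in wild type and 0.137 RPKM in knockout, and 9230102O04Rik averaged 0.205 and 0.112 RPKM, both well below Gata3 in wild type. Tfap2a overlaps the long noncoding RNA Gm26688, which averaged 0.186 RPKM in naive wild type. Gata2 and Hand1 overlap Gm38708 and Gm32915, which were not analysed here.

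Among other genes of trophoblast stem cells, 18 of 22 were tested, and 2 were called higher and 8 lower in primed knockout (4.16% and 59.3% of all genes), with a median change of -0.42 against -0.53 over all genes. Eomes, the T-box factor that works beside Cdx2 in trophoblast stem cells and also marks primitive streak, was at 6.64 and 6.55 RPKM in primed knockout and at 1.07 and 1.30 RPKM in primed wild type. It rose by 1.80 ± 0.28 with a limma adjusted p of 5.82e-10, with no overlap between the groups. Id2, an inhibitor of helix-loop-helix factors, rose by 1.61 ± 0.21 (adjusted p 5.38e-13), from 20.4 and 27.6 RPKM to 77.2 and 71.7 RPKM. The chromatin organiser Satb1 fell by 1.55 (adjusted p 8.31e-10) and the orphan receptor Esrrb, shared with naive pluripotency, fell by 1.51 (adjusted p 1.92e-19). These 4 calls kept their sign with median centring, loess and quantile normalization. Tead4, the regulator of Cdx2 and Gata3, was not called, at 1.58 ± 0.288 RPKM in primed wild type and 0.856 ± 0.0389 RPKM in primed knockout (adjusted p 0.110).

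Markers of primitive streak and mesoderm, tissues that also use Eomes, were mixed in primed knockout. Of 9 tested genes among 15 such markers, 4 were called higher (T, Wnt3, Wnt8a and Nkx1-2) and 2 lower (Tbx6 and Bmp4), against 4.16% and 59.3% of all genes. T, the Brachyury gene, averaged 35.5 RPKM ± 2.63 in primed knockout and 2.42 ± 0.674 in primed wild type, a rise of 3.43 with a limma adjusted p of 2.53e-32. The Wnt ligand gene Wnt8a rose by 3.66 (adjusted p 1.77e-36). The summed level of the 15 genes was 71.6 to 78.9 RPKM in primed knockout and 10.9 to 15.0 RPKM in primed wild type, and T, Wnt3 and Wnt8a made up most of it, at 35.5, 18.2 and 17.3 RPKM in knockout. The mean level of the median gene was 0.255 RPKM in knockout and 0.376 RPKM in wild type, and the endoderm and mesoderm factor Mixl1 averaged 0.0565 and 0.411 RPKM. The part of cells with these markers in the Eomes value was not tested. In naive cells Eomes averaged 6.51 RPKM in libraries labelled knockout and 6.05 RPKM in wild type, with a log2 change of 0.12 and an adjusted p of 0.881. Naive calls among the streak markers included Wnt8a (1.12, limma adjusted p 0.00147) and Evx1 (0.81, 0.0170), both higher in libraries labelled knockout. T was called lower there (-0.88, 0.0186), opposite to its primed rise. Of all genes, 6.08% were called higher and 5.85% lower in naive cells.

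Naive cells showed 2 calls among the other trophoblast stem cell genes, both higher in libraries labelled knockout (6.08% of all genes were called higher). The P-cadherin gene Cdh3 rose by 1.03 ± 0.22 (limma adjusted p 5.3e-05), from 8.55 and 6.08 RPKM to 16.2 and 15.4 RPKM, and fell in primed knockout, from 13.1 and 17.4 RPKM to 6.04 and 5.41 RPKM. Id2 rose by 0.79 in naive cells (adjusted p 0.00319), a call lost on leaving out 1 library in 5 of 8 cases.

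Genes of differentiated trophoblast were mostly silent. Of 28, 19 stayed below 1 RPKM in all 8 libraries, among them the giant cell hormone gene Prl3d1, the spongiotrophoblast gene Tpbpa, the labyrinth factor Gcm1 and the syncytin genes Syna and Synb, each with group means at or below 0.258 RPKM. Of the 9 tested, 1 was called higher and 3 lower in primed knockout, against 4.16% and 59.3% of all genes, with a median change of -0.29 against -0.53 over all genes. The placental retrotransposon-derived gene Peg10 rose by 1.37 ± 0.12 (limma adjusted p 1.97e-29), from 31.3 ± 3.72 to 82.5 ± 4.11 RPKM, and in naive cells by 0.40 (adjusted p 0.00862), a call lost without either library labelled knockout or without the second wild-type library. The glucose transporter gene Slc2a3, which many cell types use, fell by 2.31 in primed knockout (adjusted p 1.22e-217), from 937 ± 14.6 to 188 ± 3.66 RPKM. Limma took each gene's variance from the trend over all genes here, which makes such p-values very small.

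Keratins and junction genes were the group nearest to Krt7 in function. Of 14 tested genes among 16, 2 were called higher and 5 lower in primed knockout (4.16% and 59.3% of all genes), and 9 were higher and 3 lower after quantile normalization, under which 39.4% of all genes were called higher. Krt8, the main partner keratin of simple epithelia, rose by 0.74 ± 0.20 in primed knockout (limma adjusted p 0.000624), from 22.8 ± 2.87 to 38.8 ± 2.66 RPKM, a call lost without the first knockout library. Krt19 stood at 17.0 ± 0.767 RPKM in primed knockout and 10.98 ± 2.27 RPKM in wild type (0.60, adjusted p 0.0540), and Krt18 at 49.4 ± 2.27 and 45.2 ± 5.09 RPKM (0.13, adjusted p 0.593). After quantile normalization Krt8, Krt18 and Krt19 were all called higher, by 1.30, 0.56 and 1.27. The claudin gene Cldn7 fell by 0.95 (adjusted p 3.26e-06), which was not called with median centring, and the sodium pump subunit gene Atp1b1 fell by 1.56 (adjusted p 7.94e-41) and was called lower under every scaling.

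Paralogues of the 8 genes, which share their DNA-binding or keratin domains, were led by Cdx1 and Elf3. Of 14 paralogues 5 were tested, and 2 of these were called lower in naive libraries labelled knockout (5.85% of all genes were called lower). Cdx1, the paralogue of Cdx2 and a target of Wnt signalling in stem cells, averaged 60.7 RPKM ± 0.789 in naive wild type and 18.04 ± 0.516 RPKM in libraries labelled knockout. It fell by 1.70 ± 0.27 with a limma adjusted p of 2.5e-08, while Cdx2 in the same libraries overlapped. Elf3, an epithelial ETS factor related to Elf5, fell by 1.13 ± 0.19 (adjusted p 1.04e-07), from 90.8 ± 6.36 to 40.9 ± 0.595 RPKM, against levels of Elf5 below 0.13 RPKM. Both calls held under every scaling and without any one library. In primed cells Elf3 was called lower as deposited (-0.71, adjusted p 0.000435) and stood at 0.05 after quantile normalization, and Cdx1 was below 0.11 RPKM in every library. The endodermal paralogues Gata4 and Gata6 were not called in either state as deposited, with the primed mean of Gata4 at 1.902 RPKM in wild type and 1.11 RPKM in knockout.

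**Figure D5:**
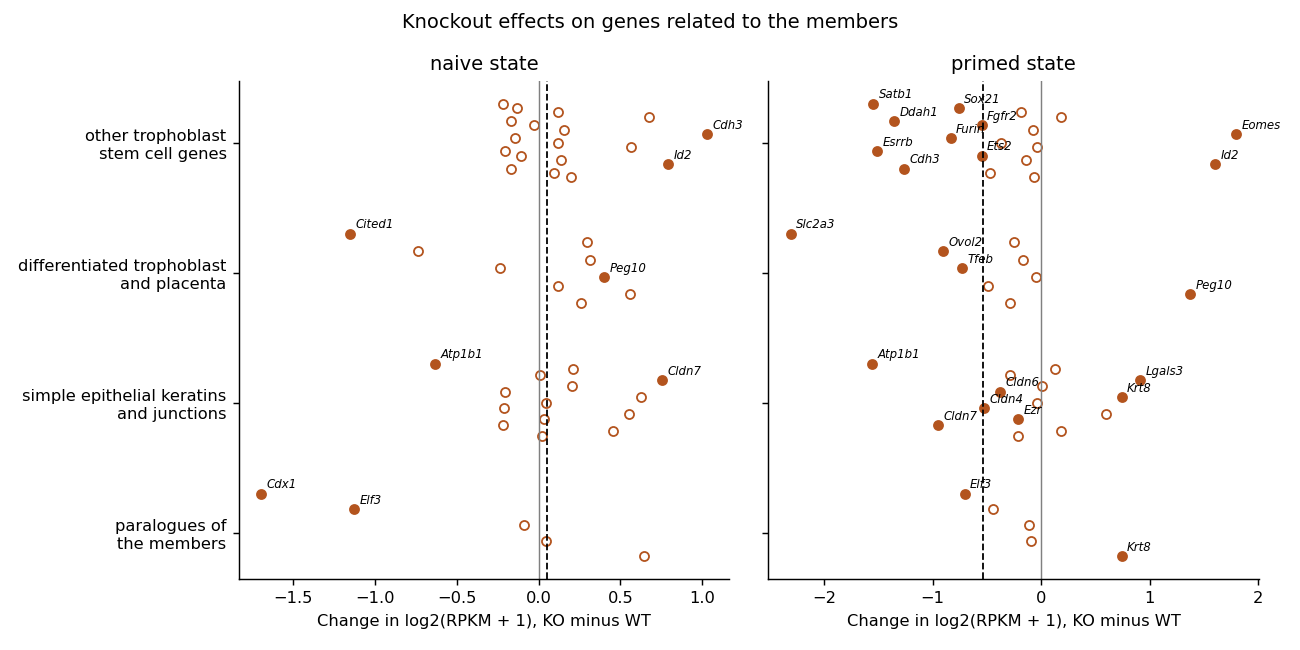
Changes in log2(RPKM + 1), knockout minus wild type as deposited, of the tested genes in 4 related lists (rows) in naive and primed cells (panels), with 1 point per gene, filled and named where called, a grey line at 0 and a dashed line at the median of all 13428 genes. Eomes, Id2, Peg10 and Krt8 lie above 0 in primed cells, and Slc2a3, Satb1, Esrrb and Atp1b1 lie below the median of all genes.

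Markers of other lineages give the setting of these values. In primed knockout, where 4.16% of all genes were called higher and 59.3% lower, of 7 tested surface ectoderm and neural crest markers 1 was called higher (Grhl3, by 0.94) and 1 lower (Snai2, by -1.03), and of 4 tested endoderm markers 1 lower (Dab2). Of 3 tested blood and endothelial markers 2 were called lower (Lmo2 and Runx1), and of 9 tested germ cell markers 1 was higher (Ifitm3) and 3 lower. Of 13 pluripotency markers 3 were called higher, led by Fgf5 (1.65), and 8 lower, among them Nanog (-1.63). In naive cells, where 11.9% of all genes were called, so were 2 of the 9 germ cell and 3 of the 13 pluripotency markers. Summed levels of the 10 blood and endothelial markers were 5.27 to 9.40 RPKM in primed wild type and 3.29 to 3.31 RPKM in primed knockout. Their part in the values of the 8 genes was not tested.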

How the data were processed

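The 8 libraries fall into 4 groups of 2. Total RNA was sequenced after ribosomal RNA removal, with ERCC spike-ins put into the lysate, per the labels' protocols. Per the submitters' processing notes, reads were handled with cutadapt (1.9), STAR (2.5.2b), featureCounts (1.5.1) and affy on mm9, with no parameters given. The authors deposited 1 RPKM value per gene, which had passed a further scaling that no source used here describes: 0 values are at 0, and genes tied in a library are tied throughout its state. There are 0 spike-in rows, and depth is unknown.

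The analysis used log2(RPKM + 1) and kept genes reaching 1 RPKM in 2 or more libraries (13428 of 24505). A limma (3.58.1, R 4.3.3) fit with an intensity trend estimated 4 group means over all libraries, and p-values were adjusted by Benjamini-Hochberg over the tested genes at 0.05. With infinite prior degrees of freedom, variances followed the trend alone. Fold changes of low genes are understated on this scale. Alternatives were other pseudocounts (0.1), filters (none, or 5 RPKM) and scalings (median, quantile, loess), separate fits per state, a replicate term, and omission of single libraries. Combinations of no filter with a pseudocount of 0.1 or with quantile normalization were chosen after seeing the data. The script was tested on simulated data. Named genes are the 8 genes, up to 2 called genes per list, direction and comparison with the largest change, single list genes that show what a list holds, and the 3 nearest profiles to a called member. The members and lists were chosen with earlier results of these data known. Promoters (GRCm38.p6, a build other than that of the deposited values) and overlapping genes came from RefSeq. Matplotlib 3.10.9 (Python 3.11.15) drew the figures.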

Additional observations from a re-analysis of the deposited data

Results flagged for a closer look

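Several effects differed between the states in the test of the difference itself (primed minus naive effect, log2, limma adjusted over all genes), in which 49.6% of all genes were called and the median gene stood at -0.59. Gata3 had a difference of -1.15 (adjusted p 0.00475). The gene passed the filter on low values only through the primed wild-type libraries, in which it is high. Its call was lost with median centring (limma adjusted p 0.108) and with no filter and a pseudocount of 0.1 (0.0708), among other settings. For Gata2 both libraries labelled knockout lay above wild type in naive and below it in primed cells, and that difference of -0.32 was not tested in the main fit (adjusted p 0.226 without the filter).

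Of the related genes, the difference was above 0 for Eomes (1.68, adjusted p 0.000117), Id2 (0.82, 0.0173), Peg10 (0.97, 1.31e-07), Cdx1 (1.59, 0.000217), Krt8 (0.69, 0.0336) and Cited1 (0.91, 0.0421). It was below 0 for Cdh3 (-2.29, 2.62e-12), Esrrb (-1.65, 2.27e-11), Satb1 (-1.38, adjusted p 0.00029), Slc2a3 (-2.43, 2.44e-120), Cldn7 (-1.70, 8.82e-09), Ovol2 (-1.17, 0.00975) and Atp1b1 (-0.93, 1.41e-07). The difference of Cdx1 comes from its naive fall, since the gene was nearly silent in both primed groups, and that of Cdh3 from a rise in naive and a fall in primed cells.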

How the results depend on the processing

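The naive count of called members was 0 of 4 (0 also at an unadjusted p below 0.05), where 11.9% of all genes were called. It became 2 of 8, Gata2 and Krt7, with quantile normalization and no filter, where 32.1% of all genes were called. The primed count was 1 of 4, where 63.4% of all genes were called. It became 2 of 8 with no filter (38.9% of all genes), 2 of 4 with each state alone (58.9%) and 2 of 4 with loess (73.5%). Median centring gave 3 of 4 (65.1%), quantile normalization 3 of 4 (74%), and quantile normalization with no filter 4 of 8 (47.1%). A filter of 5 RPKM, which removes Gata3, gave 0 of 2 (69.6%). Without 1 library the primed change of Gata3 ran from -1.46 to -0.89. The difference count was 1, where 49.6% of all genes were called. It became 0 with a filter of 5 RPKM (57.3% of all genes) and 0 with no filter and a pseudocount of 0.1 (24.3%). Median centring gave 2 (46.3%), Tfap2a and Tfap2c, both above 0, and lost Gata3. Quantile normalization (64.4%) and loess (63.4%) each gave 2, Tfap2c above 0 and Gata3 below 0. Quantile normalization with no filter gave 3 (37.4%). Without 1 library the difference of Gata3 ran from -1.43 to -0.86.

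Signs turned in the order median centring, quantile normalization, loess, and quantile normalization without a filter. Primed Cdx2 became 0.28, 0.12, 0.0072 and 0.059, Tfap2a 0.49, 0.23, 0.18 and 0.19, and Tfap2c 0.60, 0.40, 0.33 and 0.36. The difference became 0.36, 0.18, 0.092 and 0.11 for Cdx2, 0.41, 0.15, 0.11 and 0.11 for Tfap2a, and 0.69, 0.49, 0.44 and 0.45 for Tfap2c. The primed median change of all genes, -0.53 as deposited, was 0.16 with median centring, 0.03 with quantile normalization and 0.02 with loess; the cause was not tested. Without 1 library the naive change ran from -0.32 to 0.25 for Cdx2, -0.12 to 0.40 for Tfap2a, -0.19 to 0.13 for Tfap2c and -0.27 to 0.20 for Gata3, and the difference of Tfap2c from -0.23 to 0.10.

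The main fit used no pairing by replicate number. Deviations of same-numbered libraries correlated over 13428 genes at 0.314 in naive and -0.0356 in primed cells, so some shared deviation was seen in naive cells. The replicate block left the counts of called members at 0, 1 and 1, and those of all genes at 942 (naive, 1602 without), 7672 (8517) and 5171 (6658). Limits are 2 libraries a group, unknown depth, the unstated scaling and 4 genes below the filter. A library left alone in its group was assumed to vary like the others.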
